A study of Mus musculus with 6 samples.

Results

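The CCN family genes *Cyr61*, *Ctgf*, *Nov*, *Wisp1* and *Wisp2* were examined in mouse tail tendon with and without the transcription factor Mkx. Their rows were taken by gene symbol, as 5 of the 44788 symbols in the bulk RNA sequencing count table, and all 5 passed the filter on low counts. The family was chosen with earlier results of these data known. The study compared tail tendons of 3 wild-type (WT) and 3 *Mkx-/-* C57BL/6 mice, labelled 3 weeks old, to ask which genes change when Mkx is missing. The *Mkx-/-* mice carry a knockout of Mkx, a homeobox factor of tendon cells, that is not restricted to tendon. The text of the study gives another age for the bulk RNA sequencing, and the labelled age is used here. The labels give no treatment for either group and do not say whether a library pools animals.

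CCN proteins are secreted matricellular proteins, which sit in the extracellular matrix and signal to cells rather than bearing load. A full-length member is built from an IGF-binding-protein-like module, a von Willebrand factor C module, a thrombospondin type 1 module and a C-terminal cystine knot, and it acts by binding integrins, heparan sulfate proteoglycans and growth factors. Cyr61 (CCN1) and Ctgf (CCN2, connective tissue growth factor) are classical targets of the YAP and TAZ coactivators and of serum response factor, and Ctgf is also a target of TGF-beta. Both are angiogenic, and Ctgf is linked to matrix synthesis in tendon, cartilage and fibrosis. Nov (CCN3) is often opposed to Ctgf in cultured cells and is made by chondrocytes, muscle cells and neurons, among others. Wisp1 (CCN4) and Wisp2 (CCN5) were found as Wnt-inducible genes, and Wisp2 lacks the C-terminal cystine knot module.

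The members share a cysteine-rich signature in their coding sequences. The stretch below encodes the cysteine-rich signature of the first module, in which glycine is followed by a cysteine, any residue, a pair of cysteines, any pair of residues and a last cysteine. It is shown because reads over such a conserved stretch could be assigned to the wrong member if the genes were close to identical. Cysteine codons are in capitals, and the sequences come from the GENCODE M1 transcripts on mm9. The stretch lies in exon 3 of *Wisp2* (chr2:163650961-163650984, plus strand) and in exon 2 of *Cyr61* (chr3:145312295-145312318, minus strand), *Ctgf* (chr10:24315772-24315795, plus strand), *Nov* (chr15:54577820-54577843, plus strand) and *Wisp1* (chr15:66738107-66738130, plus strand).
*Cyr61*: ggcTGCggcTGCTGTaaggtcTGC
*Ctgf*: ggcTGCggcTGCTGCcgcgtcTGC
*Nov*: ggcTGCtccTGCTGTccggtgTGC
*Wisp1*: ggcTGTgaaTGCTGTaagataTGT
*Wisp2*: ggcTGTggcTGCTGTcgagtgTGT

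The stretch was located by its pattern of glycine and cysteine codons, so their presence in all 5 members was required in advance. The cysteine codons themselves are TGC or TGT, and the codons between them are shared by some members and differ in others. Over the aligned coding sequences, the 10 pairs of members were identical at 56.2% to 62.8% of bases, with *Ctgf* and *Nov* the closest pair. The longest run of identical bases in the transcripts of any pair was 28, also between *Ctgf* and *Nov*. The coding sequence of *Wisp2*, with 251 codons of which 29 encode cysteine, is the shortest. The other members have 348 to 379 codons, of which 38 to 40 encode cysteine.

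On mm9 the 5 genes lie at 5 loci, *Wisp2* on chromosome 2 from 163646597 to 163658882, *Cyr61* on chromosome 3 from 145309935 to 145312949, *Ctgf* on chromosome 10 from 24315248 to 24318489, and *Nov* and *Wisp1* on chromosome 15 from 54577257 to 54585594 and from 66722882 to 66754763. *Cyr61* is on the minus strand and the others are on the plus strand. *Ctgf* shares 1667 bases with the antisense noncoding gene *Gm15270* in the annotation, 1121 of them exonic in *Ctgf*. The sources used here do not state whether reads were counted by strand, so reads from *Ctgf* and from this antisense gene cannot be told apart.

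The libraries held 10835070 to 14160301 counts, and members had 119 to 31294 counts in a library, so that counting error was at most 9.17% of a value. *Mkx* itself had 1825, 1381 and 1685 counts in WT and 620, 589 and 491 in *Mkx-/-* (log2 fold change −1.60 ± 0.16 (SE), adjusted p = 0.00183), so its reads were reduced and not absent. The matrix genes *Col1a1*, *Col1a2* and *Sparc* held 42.0% to 48.5% of the counts in WT and 28.3% to 34.8% in *Mkx-/-*. WT replicate 3 was the only library with counts of the Y-linked gene *Ddx3y* (301) and had 1 count of *Xist*, against 1289 to 1866 in the others, so it came from a male and the other 5 from females. WT replicate 1 stood apart from the other WT libraries, with a chi-square per degree of freedom of 37.4 and 39.8 against them, where they differed from each other by 7.98. *Mkx-/-* replicate 3 had 790 CPM (counts scaled to a common library size, with TMM factors) summed over smooth muscle and pericyte markers, against 139 to 211 in the others. Skeletal muscle markers summed to 92.8 to 333 CPM in WT and 455 to 2295 CPM in *Mkx-/-*, and macrophage markers to 424 to 465 and 261 to 315 CPM. Schwann cell markers summed to 5398 to 7505 CPM in WT and 8797 to 16538 CPM in *Mkx-/-*, with an unadjusted p under 0.05 for all 5 genes, of which edgeR called 0 and DESeq2 called 1 higher. Keratinocyte markers summed to 0.788 to 6.77 and 9.77 to 13.2 CPM. The sums of these 4 lists did not overlap between the genotypes, and their part in the results on *Ctgf*, *Nov*, *Wisp1* and *Wisp2* was not tested. In a whole tissue, fewer cells of a type and less RNA per cell cannot be told apart.

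*Ctgf* and *Nov* were higher in *Mkx-/-* tendon, *Nov* by the larger fold, while *Cyr61* did not differ beyond the spread between libraries. *Wisp1* was lower and *Wisp2* higher in every *Mkx-/-* library than in every WT library, but neither passed the test. A gene was called here at an adjusted p under 0.05 in the quasi-likelihood test of edgeR and a fold change above 2 in either direction. With this rule, 2 of the 5 members were called higher, beside 1.89% of the 14550 genes tested, and 0 were called lower, beside 1.33%. In either direction 2 of 5 were called, beside 3.22% of all genes, and with the adjusted p alone the same 2 members passed, beside 5.44%. At an unadjusted p under 0.05, 1 member was lower (*Wisp1*), and DESeq2 called that member lower. The share of all genes at that unadjusted cut was not computed. The 2 genotypes did not overlap for 4 of the 5 members, beside 28.2% of all genes. Of these 4, *Ctgf*, *Nov* and *Wisp2* had all *Mkx-/-* libraries above all WT libraries (14.6% of all genes) and *Wisp1* had them below (13.6%). The p-values measure only the spread between these libraries, and an exact permutation test of 3 against 3 cannot go below p = 0.1.

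**Figure D1:**
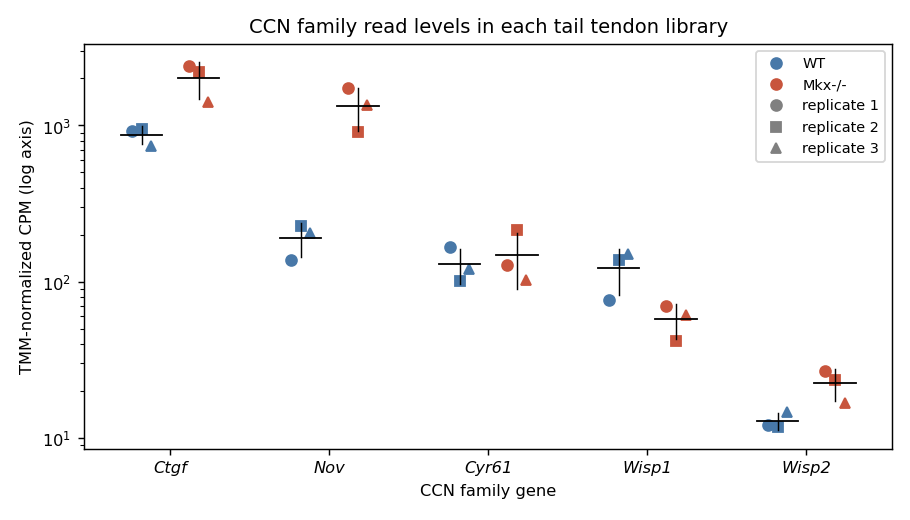
TMM-normalized CPM of the 5 CCN genes (log axis) in each of the 3 WT and 3 *Mkx-/-* libraries, 1 point per library, with a bar at the mean of each genotype and a line for its SD. *Nov* separates most widely, from 138 to 227 CPM in WT and from 911 to 1728 CPM in *Mkx-/-*, while the points of *Cyr61* overlap.

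*Ctgf*, the angiogenic and matrix-inducing member, was at 922, 955 and 742 CPM in WT and at 2414, 2199 and 1412 CPM in *Mkx-/-*. All 3 *Mkx-/-* libraries were above WT, and the lowest of them was 1.48 times the highest WT library. The means were 873 ± 115 and 2008 ± 528 CPM (SD, n = 3 per genotype), a fold change of 2.30 with a 95% interval of 1.61 to 3.28 (log2 fold change 1.20 ± 0.22 (SE), adjusted p = 0.0226). *Ctgf* ranked 374th of all genes tested by p. It is among the genes related to angiogenesis that the study plotted for these samples, so its choice is not independent of them.

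The *Ctgf* call was the less stable of the 2. Its log2 fold change stayed between 1.03 and 1.40 when 1 library was left out, but the adjusted p rose to 0.0826 without WT replicate 2, 0.106 without WT replicate 3, 0.0582 without *Mkx-/-* replicate 1 and 0.0744 without *Mkx-/-* replicate 2. Over 19 alternative analyses the adjusted p ran from 3.23e-06 with DESeq2 to 1 in a test against a fold of 2, and *Ctgf* stayed past the threshold in 14 of them. Within *Mkx-/-*, *Ctgf* followed the order of the skeletal muscle markers, which summed to 2295, 1108 and 455 CPM in replicates 1, 2 and 3. In WT those sums were 333, 92.8 and 229 CPM and did not follow the order of *Ctgf*. Their part in the *Ctgf* result was not tested. Leaving the muscle genes out of the library sizes kept the call, but this changes only the scaling. It cannot show whether muscle tissue contributed reads of *Ctgf*.

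*Nov* had the largest change of the family. It was at 138, 227 and 205 CPM in WT and at 1728, 911 and 1362 CPM in *Mkx-/-*, so that the lowest *Mkx-/-* library was 4.02 times the highest WT library. The raw counts show the same gap, with 1752, 2309 and 2554 reads in WT and 18866, 12966 and 17178 in *Mkx-/-*. The fold change was 7.03 with a 95% interval of 4.49 to 11.0 (log2 fold change 2.81 ± 0.28 (SE), adjusted p = 0.00181). Among all genes tested it ranked 51st by p and 71st by fold increase.

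*Nov* passed the threshold in 19 of 19 alternative analyses, with log2 fold changes from 2.56 to 3.07 and adjusted p-values from 2.47e-25 to 0.0190. Within each genotype *Nov* followed the order of 2 marker sums. The tendon markers summed to 153673, 248995 and 222188 CPM in WT replicates 1, 2 and 3 and to 183094, 126597 and 128297 CPM in *Mkx-/-* replicates 1, 2 and 3, and the cartilage markers to 544, 1079 and 867 CPM and to 1324, 813 and 949 CPM. Both sums overlapped between the genotypes, where *Nov* did not. Most of the tendon sum was *Col1a1*, at 130859, 225743 and 199401 CPM in WT and at 149212, 96452 and 101112 CPM in *Mkx-/-*. Of the other tendon markers, *Scx*, *Tnmd* and *Kera* did not follow the order of *Nov* in WT. *Thbs4* did not follow it in *Mkx-/-*, and *Mkx* and *Fmod* did not in either genotype. Most of the cartilage sum was *Col2a1*, the collagen II gene of cartilage, which was not called (log2 fold change −0.084, adjusted p = 0.905). Of the 8 cartilage markers, 7 were tested and 3 were called higher, the aggrecan gene *Acan* and the cartilage matrix genes *Matn3* and *Ucma*, while *Matn1* had no counts in any library. Of the others, *Sox9*, the chondrocyte transcription factor, was at 1.01 (adjusted p = 0.0891), *Hapln1* at −0.22 and *Col10a1* at 0.15. *Matn3*, *Sox9* and *Col10a1* in both genotypes, and *Acan* and *Hapln1* in WT, did not follow the order of *Nov*. *Col2a1* and *Ucma* followed it in both genotypes. The part of these markers in the *Nov* result was not tested.

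*Cyr61*, the other angiogenic member that responds to YAP, did not move with *Ctgf*. It was at 165, 100.4 and 121 CPM in WT and at 128, 212 and 102 CPM in *Mkx-/-*. The genotypes overlapped, with *Mkx-/-* replicate 2 the highest library and WT replicate 2 the lowest. The log2 fold change was 0.19 ± 0.28 (SE), with a 95% interval of −0.46 to 0.84 and an adjusted p of 0.743. A rise as large as the mean rise of *Ctgf* lies outside that interval. Changes from a fall of 0.46 to a rise of 0.84 lie within it. The value was −0.17 without *Mkx-/-* replicate 2, and no alternative analysis called the gene.

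*Wisp1*, a Wnt-inducible member linked to osteogenic cells, was at 76.4, 137 and 150.4 CPM in WT and at 70.0, 41.7 and 60.6 CPM in *Mkx-/-*. All 3 *Mkx-/-* libraries were below WT, but the lowest WT library, replicate 1, was only 1.09 times the highest *Mkx-/-* library. The mean level in WT was 2.11 times that in *Mkx-/-* (log2 fold change −1.08 ± 0.28 (SE), 95% interval −1.71 to −0.45), which did not pass the test (adjusted p = 0.0625). The call turned on the analysis. DESeq2 gave an adjusted p of 0.00194, a filter keeping every gene with 1 count gave 0.00321 and leaving out WT replicate 1 gave 0.00725, with log2 fold changes of −1.09, −1.07 and −1.33. In the other 16 of 19 alternatives it was lower but not called, with the adjusted p reaching 1 in the test against a fold of 2.

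*Wisp2*, the member without a cystine knot, was at 12.0, 11.7 and 14.7 CPM in WT and at 26.8, 23.5 and 16.6 CPM in *Mkx-/-*. All *Mkx-/-* libraries were above WT, with the lowest, replicate 3, at 1.14 times the highest WT library. The fold change was 1.75 (log2 fold change 0.80 ± 0.20 (SE), 95% interval 0.36 to 1.25) and did not pass the test (adjusted p = 0.0535). DESeq2 gave an adjusted p of 0.0156 with the same log2 fold change, below the fold asked for. Scaling by library size alone gave a log2 fold change of 1.05 (adjusted p = 0.0129), but that scaling also moved the median of all genes by 0.25, and relative to that median *Wisp2* was at 0.80.

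The remaining relative, *Wisp3*, had 4 counts in *Mkx-/-* replicate 1 and 0 in the other 5 libraries, and it was not tested.

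**Figure D2:**
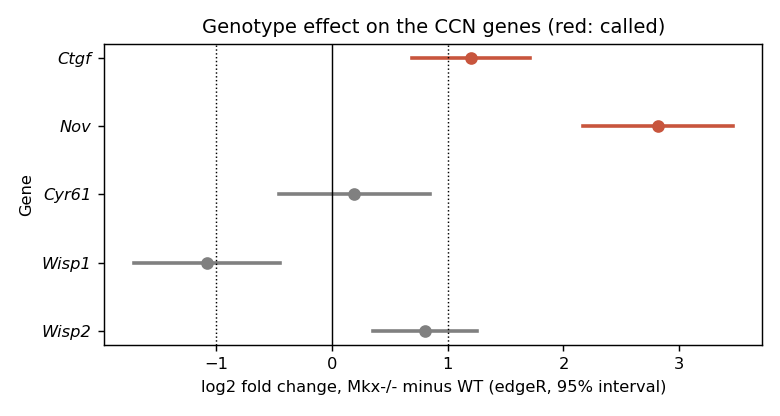
log2 fold change of each CCN gene in *Mkx-/-* against WT (edgeR), with 95% intervals and dotted lines at a fold of 2 in either direction. The called genes *Ctgf* (1.20) and *Nov* (2.81) are in red, the interval of *Cyr61* crosses 0, and *Wisp1* lies on the negative side alone.

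Between genes, levels can be set side by side only per length. As CPM per kilobase of annotated exon, *Ctgf* was the most abundant CCN transcript in all 6 libraries, at 370, 384 and 298 in WT and at 969, 883 and 567 in *Mkx-/-*. In WT, *Nov* (66.1 ± 16.1, SD, n = 3) and *Cyr61* (63.6 ± 16.3) came next and were indistinguishable, with *Cyr61* ahead of *Nov* in replicate 1 and behind it in replicates 2 and 3. *Wisp1* (22.0 ± 7.15) and *Wisp2* (6.64 ± 0.853) followed, in the same order in every WT library.

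In *Mkx-/-* tendon the middle and the end of this order differed. *Nov* was at 602, 318 and 475 CPM per kilobase and was above *Cyr61*, at 63.0, 105 and 50.2, in every library. The mean of *Nov* was 1.04 times that of *Cyr61* in WT and 6.40 times in *Mkx-/-*. *Ctgf* remained above *Nov* in each library, but the ratio of their mean levels was 5.30 in WT and 1.74 in *Mkx-/-*. At the lower end, *Wisp2* was above *Wisp1* in *Mkx-/-* replicates 1 and 2 and below it in replicate 3, so their means of 11.6 ± 2.70 and 10.4 ± 2.61 could not be ranked.

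Summed per length, the 5 genes reached 520, 543 and 464 in WT and 1661, 1325 and 1111 in *Mkx-/-*, which is 2.68 times the WT mean. Of that rise in the mean, 53.2% was *Ctgf* and 46.5% was *Nov*. The make-up of the sum differed as well. The share of *Nov* was 13.1% ± 3.32 in WT and 34.3% ± 9.52 in *Mkx-/-* (SD, n = 3), that of *Ctgf* 68.7% ± 3.87 and 58.7% ± 7.82, and that of *Cyr61* 12.6% ± 3.29 and 5.40% ± 2.20. *Wisp1* made up 4.37% ± 1.62 of the WT sum and 0.774% ± 0.210 of the *Mkx-/-* sum. These lengths assume that all annotated exons are used, and the order of the members was the same with the longest transcript in place of all exons.

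**Figure D3:**
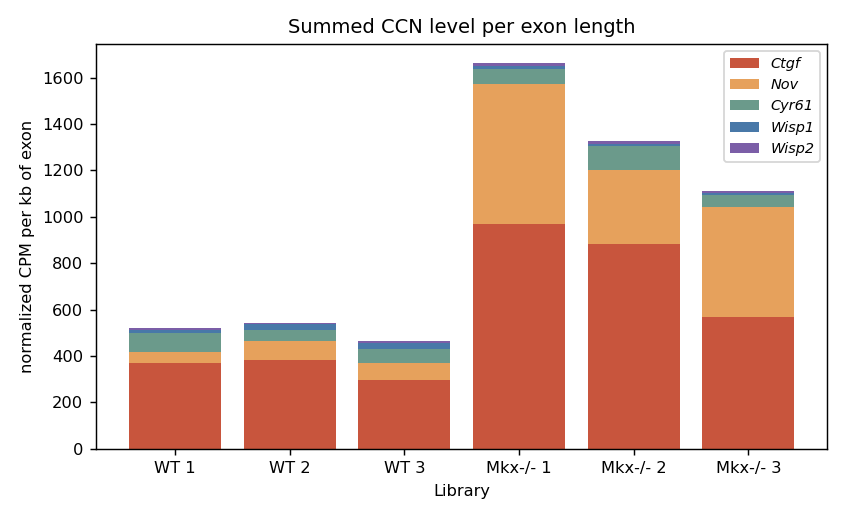
Normalized CPM per kilobase of exon of the 5 CCN genes, stacked for each library. The sums are 464 to 543 in WT and 1111 to 1661 in *Mkx-/-*, and nearly all of the added height is *Ctgf* and *Nov*.

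Ratios of read counts within a library do not depend on how libraries are scaled. For each read of *Wisp1* there were 1.81, 1.65 and 1.36 reads of *Nov* in WT, against 24.7, 21.9 and 22.5 in *Mkx-/-*. This was the widest shift of the pairs given here, 3.85 on the log2 scale. Only ratios to *Ctgf* were planned. This pair sets the member with the largest rise against the only one that was lower, so a wide shift follows from the choice. The ratio was close to constant among the *Mkx-/-* libraries, where the CPM of *Nov* and *Wisp1* had coefficients of variation of 30.7% and 25.1%. *Ctgf* had 6.68, 4.21 and 3.63 reads per read of *Nov* in WT and 1.40, 2.41 and 1.04 in *Mkx-/-*, without overlap. *Ctgf* had 77.0, 81.8 and 50.6 reads per read of *Wisp2* in WT and 89.9, 93.4 and 84.8 in *Mkx-/-*. This was the narrowest shift of the pairs given here, −0.39 on the log2 scale for *Wisp2* over *Ctgf*. These values did not overlap, but 81.8 and 84.8 lie closer together than the counting error of *Wisp2*. That error was 9.17% in WT replicate 2, which had 119 counts. *Ctgf* outnumbered *Cyr61* by 5.58, 9.51 and 6.13 in WT and by 18.9, 10.3 and 13.9 in *Mkx-/-*, also without overlap. The share of all gene pairs without overlap was not computed.

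Deviations from the genotype mean showed which members varied together from library to library. *Nov* and *Wisp1*, which differed in opposite directions between genotypes, deviated in the same direction in every library: both were low in WT replicate 1 (−0.43 and −0.61 on the log2 scale) and in *Mkx-/-* replicate 2 (−0.50 and −0.43), and both were high in *Mkx-/-* replicate 1 (0.42 and 0.32). *Cyr61* ran against them, with its highest deviations in WT replicate 1 (0.39) and *Mkx-/-* replicate 2 (0.60). *Ctgf* and *Wisp2* were both high in *Mkx-/-* replicate 1 (0.30 and 0.29) and low in replicate 3 (−0.47 and −0.40), but they did not deviate together in WT. With 3 libraries a genotype these patterns are a description.

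**Figure D4:**
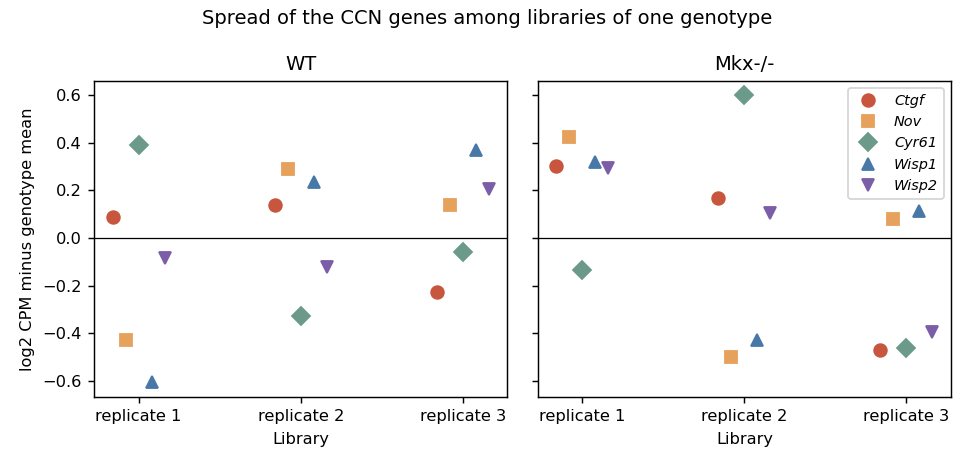
log2 CPM of each CCN gene minus its genotype mean, for the 3 WT libraries (left) and the 3 *Mkx-/-* libraries (right). *Nov* and *Wisp1* lie on the same side of 0 in all 6 libraries, and *Cyr61* is highest in WT replicate 1 and *Mkx-/-* replicate 2.

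The genes with the most similar pattern to each member were found by the root mean square (RMS) difference of mean-centred log2 CPM over the 6 libraries, among tested genes that averaged 10 CPM or more. For *Nov* they were *Plod2*, a collagen lysyl hydroxylase that sets telopeptide cross-links (RMS 0.262), *Acan*, the aggrecan core protein of cartilage (0.324), and *Net1* (0.354). *Plod2* averaged 8.59 CPM in WT, against 74.1 CPM in *Mkx-/-*, and *Net1* averaged 7.30 and 62.7 CPM. The distance of *Nov* to its nearest gene was the widest of the 5 members.

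For *Ctgf* the nearest genes were *Ebf3*, a transcription factor of mesenchymal cells (RMS 0.0856), *Galr2*, a galanin receptor (0.172), and *Anxa8*, a calcium-dependent membrane-binding annexin (0.180). *Ebf3* averaged 7.84 CPM in WT, against 17.9 CPM in *Mkx-/-*. Such closeness is what the genes were chosen for, and it is given as a description. For *Wisp1* they were *Kazald1*, which encodes an IGFBP-related secreted protein (RMS 0.0904), *Igfbp3*, the main carrier of IGF in serum (0.133), and *Sema3f*, a secreted semaphorin (0.133). *Kazald1* averaged 80.1 CPM in WT, against 36.6 CPM in *Mkx-/-*. *Wisp2* was nearest to *Plekhh2* (0.0842), *Dut* (0.0928) and *Rgl1* (0.122), and *Cyr61* to *Rpsa-ps2* (0.122), *Zrsr1* (0.139) and *Rpl29* (0.143). The neighbours of *Cyr61* include a ribosomal pseudogene and genes with near-identical copies, whose counts are uncertain.

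Genes that act around the CCN proteins were described in 8 lists with 113 genes, of which 104 were tested, 10 were called higher and 4 lower. Of all 14550 genes tested, 1.89% were called higher and 1.33% lower, the shares to read each list's calls against. With 3.22% called in either direction, no call in a list of 14 or 18 tested genes is unremarkable. The median log2 fold change of all genes tested was −0.0037, the value to read each list's median against. Counts at an unadjusted p under 0.05 have no such share beside them, because it was not computed. Many genes pass that cut: in edgeR *Ccnd1* had an unadjusted p of 0.0486 and an adjusted p of 0.217.

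None of the listed Hippo, TEAD and serum response factor genes, which act upstream of *Ctgf* and *Cyr61*, was called. Their transcript levels do not measure the activity of their proteins. Of the 18 genes of the Hippo pathway, its TEAD partners and the serum response factor branch, all 18 were tested and 0 were called by edgeR or by DESeq2, and at an unadjusted p under 0.05 there were 4 higher and 2 lower, with a median log2 fold change of 0.037. The smallest p-values were those of *Lats1*, the kinase that restrains YAP (33.1 ± 0.748 CPM in WT, 21.9 ± 1.66 in *Mkx-/-*, log2 fold change −0.60, adjusted p = 0.0252), and *Vgll4*, which competes with YAP for TEAD (17.6 ± 0.451 and 26.2 ± 2.47 CPM, 0.58, adjusted p = 0.0341). Both passed the adjusted p alone, as 5.44% of all genes tested did, and were below the fold asked for. Of the TEAD factors that carry YAP to DNA, *Tead3* was at 0.58 (adjusted p = 0.0617) and *Tead1* at −0.74 (adjusted p = 0.0793).

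Among 20 other target genes of YAP and TAZ, 18 were tested, 2 were called higher and 0 lower, with a median log2 fold change of 0.19. At an unadjusted p under 0.05, 4 were higher and 3 lower by edgeR, and DESeq2 called 2 higher and 1 lower. Without WT replicate 2 the number called higher was 1. Without WT replicate 1, or with the filter of 1 count, 3 were called higher and 1 lower. The called genes were *Nt5e*, the CD73 ectonucleotidase, at 102 ± 29.5 CPM in WT and 369 ± 85.4 in *Mkx-/-* (log2 fold change 1.86, adjusted p = 0.00576), and *Fjx1*, a secreted Four-jointed homologue, at 4.03 ± 1.53 and 12.6 ± 1.01 CPM (1.64, adjusted p = 0.0121). *Axl*, a receptor tyrosine kinase, was at 0.63 (adjusted p = 0.0563) and *Igfbp3* at −1.25 (adjusted p = 0.0734).

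The immediate early genes, which respond to serum and stress as *Cyr61* does, held 18 tested genes, of which edgeR called 0 higher and 3 lower. DESeq2 called 0 higher and 4 lower, and 2 genes were higher at an unadjusted p under 0.05 in edgeR. Their median log2 fold change was −0.47, below that of all genes. The AP-1 subunit *Fosb* was at 98.2, 131 and 118 CPM in WT and at 50.7, 42.4 and 42.1 CPM in *Mkx-/-* (log2 fold change −1.36, adjusted p = 0.00250). *Dusp1*, a MAP kinase phosphatase, was at −1.22 (adjusted p = 0.0248) and *Fos* at −1.91 (adjusted p = 0.0404), while *Jun* passed the adjusted p alone (−0.69, adjusted p = 0.0252). The WT values of *Fos* were uneven, at 135, 36.1 and 90.4 CPM. The number called higher was 2 with library size alone and 1 without *Mkx-/-* replicate 1. The number called lower was 1 when WT replicate 3 or any 1 of the *Mkx-/-* libraries was left out.

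Of the targets of TGF-beta, which also induces *Ctgf*, 12 were tested, and both edgeR and DESeq2 called 3 higher and 0 lower, while 0 had a lower value at an unadjusted p under 0.05, with a median log2 fold change of 0.72. *Postn*, the matricellular periostin, was at 116 ± 29.3 CPM in WT and 326 ± 91.3 in *Mkx-/-* (log2 fold change 1.49, adjusted p = 0.0165), and *Ltbp2*, a microfibril protein of the latent TGF-beta binding protein family, at 16.6 ± 8.76 and 61.1 ± 22.4 CPM (1.88, adjusted p = 0.0351). *Pmepa1*, an inhibitor in the pathway, passed the adjusted p alone at 0.94 (0.0206). The study plotted *Postn* for these samples too. The count of 3 was 1 without WT replicate 2 or WT replicate 3. The median includes *Acta2*, also a smooth muscle marker here, and *Tagln*, neither of them called. Both were by far highest in *Mkx-/-* replicate 3, the library with the high smooth muscle and pericyte sum. *Acta2* was at 52.3, 50.2 and 396 CPM in *Mkx-/-* (WT mean 86.7) and *Tagln* at 10.6, 22.9 and 177 CPM (WT mean 10.1). The median without these genes was not computed.

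Of 12 targets of Wnt and beta-catenin, the pathway that gave *Wisp1* and *Wisp2* their names, 7 were tested, and both edgeR and DESeq2 called 1 higher and 0 lower, while 0 had a lower value at an unadjusted p under 0.05, with a median log2 fold change of 0.47. The called gene was *Lgr5*, an R-spondin receptor, with 0, 0.589 and 0.801 CPM in WT and 14.7, 8.85 and 15.7 CPM in *Mkx-/-* (adjusted p = 0.00364). *Nkd2*, a feedback inhibitor of Wnt signalling, was at 33.8 ± 14.6 and 66.4 ± 7.63 CPM (log2 fold change 0.98, adjusted p = 0.105). The Wnt-named members, neither of which passed the test, had log2 fold changes of −1.08 (*Wisp1*) and 0.80 (*Wisp2*).

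None of the tested receptors through which CCN proteins reach cells was called. Of 15 integrin, LRP, Notch, IGF and neurotrophin receptor genes, 14 were tested and 0 were called by edgeR or by DESeq2, and at an unadjusted p under 0.05 there were 2 higher and 2 lower, with a median log2 fold change of −0.052. The integrin subunits *Itgb3* and *Itga5* were at 0.82 (adjusted p = 0.0723) and 0.52 (adjusted p = 0.0834). *Igf2r*, which clears IGF2, was at −0.46 (adjusted p = 0.0823), and *Itgam*, a subunit of leukocyte integrins, at −0.54 (adjusted p = 0.130) beside the lower macrophage markers.

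Matrix proteins and growth factors that bind CCN proteins, on the other hand, held the gene with the smallest adjusted p of the 8 lists, *Bgn*. Of 12 tested, 3 were called higher and 1 lower, with a median log2 fold change of 0.20. It encodes the proteoglycan biglycan. *Bgn* was at 964, 1268 and 1009 CPM in WT and at 5175, 4358 and 4777 CPM in *Mkx-/-* (log2 fold change 2.14, adjusted p = 0.00115). *Fn1*, fibronectin, which binds the C-terminal module of Ctgf, was at 1014 ± 79.8 and 2933 ± 213 CPM (1.53, adjusted p = 0.00173), and *Acan* at 32.0 ± 9.74 and 147 ± 33.4 CPM (2.20, adjusted p = 0.00380). *Fbln1*, fibulin-1, a partner of Nov, ran the other way at 67.8 ± 20.1 and 22.7 ± 0.479 CPM (−1.58, adjusted p = 0.00525).

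Of 7 IGF binding protein genes, the classical *Igfbp1* to *Igfbp6* and the related *Igfbp7*, whose products share a first module with the CCN family, 6 were tested, 1 was called higher and 0 lower, with a median log2 fold change of −0.20. DESeq2 called 1 lower, *Igfbp3*, which was also the 1 gene lower at an unadjusted p under 0.05 in edgeR. The gene called higher was *Igfbp7*, a low-affinity member of the superfamily, at 234, 244 and 265 CPM in WT and at 551, 628 and 640 CPM in *Mkx-/-* (log2 fold change 1.29, adjusted p = 0.00189). *Igfbp6* was at 0.40 (adjusted p = 0.157), and *Igfbp2* at −0.88 (adjusted p = 0.298). *Igfbp3*, the neighbour of *Wisp1* named above, had WT values of 73.8, 151 and 183 CPM and *Mkx-/-* values of 74.7, 39.5 and 57.8 CPM, with WT replicate 1 inside the range of the mutant libraries.

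**Figure D5:**
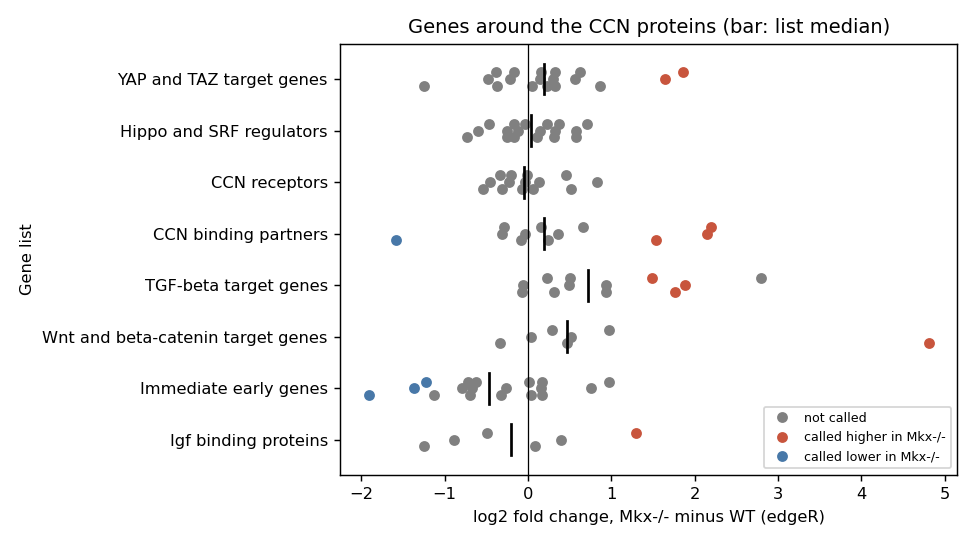
log2 fold change (edgeR) of every tested gene in 8 lists of genes around the CCN proteins, 1 point per gene, with a bar at the median of each list and called genes in red (higher in *Mkx-/-*) or blue (lower). Called genes are 10 in red and 4 in blue, and the lists of regulators and receptors hold none.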

How the data were processed

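RNA was extracted from tail tendons with Trizol and sequenced as Ion Total RNA-Seq libraries on an Ion Proton, per the labels. The authors removed adaptors and low-quality reads, aligned with MapSplice to mm9 and deposited raw counts per gene symbol. The counting program, annotation and strand setting are not given in the sources used here.

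The counts were tested with edgeR 4.0.16 (R 4.3.3) after TMM scaling and filterByExpr, with genotype as the only term and Benjamini-Hochberg adjustment over 14550 genes. Calls needed both an adjusted p under 0.05 and a fold change above 2. Levels are CPM with TMM scaling, and fold changes use a prior count of 0.125. In simulated counts for 14313 genes of this comparison, 192 of 199 genes given a log2 change of 2 were recovered, with 14 false calls. That change is larger than those of *Ctgf*, *Cyr61*, *Wisp1* and *Wisp2*, so the recovery of changes of their size was not measured. Replicates differed by more than sampling noise (chi-square per degree of freedom 37.4 and 39.8 between WT replicate 1 and the other WT libraries, 7.98 between those, and 22.9 to 26.7 within *Mkx-/-*).

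Alternatives were DESeq2 1.42.0, limma 3.58.1 voom, glmTreat, a robust fit, other scalings, other filters, a replicate block and each library left out. Scaling to the Hippo and SRF regulators, and the reading of the fit without WT replicate 3 as a fit of 1 sex, were chosen after seeing the data. Genes named in the text are the members, *Wisp3*, checks of genotype and sex, at most 4 genes with the smallest p per list (and every called gene where 4 or fewer), and the 3 genes most similar to each member. The naming of *Col1a1*, *Col1a2* and *Sparc* came after seeing their values. The other tendon and cartilage markers, *Acta2* and *Tagln* were also named outside this rule. A result that the rule names is not reported here. The members and lists were chosen with earlier results of these data known. Coordinates and coding sequences are from GENCODE M1 on mm9 (Biopython 1.88 for alignment).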

Additional observations from a re-analysis of the deposited data

How the results depend on the processing

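Of 95 member values under 19 alternatives, 85 kept direction and call, and the rest follow. The cause of these changes was not tested unless given. Without *Mkx-/-* replicate 2, *Cyr61* reversed to −0.17 (log2 fold change; range with 1 library left out −0.17 to 0.41). *Ctgf* lost its call in the test against a fold of 2 (1.20, adjusted p = 1) and in 4 of 6 fits with 1 library left out, which ranged from 1.03 to 1.40. *Wisp1* gained a call with DESeq2 (−1.09), the filter of 1 count (−1.07) and without WT replicate 1 (range with 1 library left out −1.33 to −0.89), and *Wisp2* with library size alone (1.05). Members called higher were 1 against a fold of 2, 3 with library size alone and 1 to 2 with 1 library left out. Members called lower were 1 with DESeq2 and with the filter of 1 count, and 0 to 1 with 1 library left out. Over all genes, 275 higher and 193 lower calls became 34 and 41 against a fold of 2, 541 and 322 with the filter of 1 count, 711 and 154 with library size alone (which moved the median of all genes by 0.25), and 103 to 321 and 112 to 248 with 1 library left out. Genes of the 8 lists called lower were 4, and 2 to 5 with 1 library left out. Without WT replicate 3, the male, *Nov* kept its call and *Ctgf* did not. Genotypes share replicate numbers, but same-numbered samples did not deviate together (correlations 0.051, −0.19 and 0.29). A replicate block gave 0.15 for *Cyr61*, 1.17 for *Ctgf*, 2.79 for *Nov*, −1.06 for *Wisp1* and 0.79 for *Wisp2*, changing no call of a member, with 195 genes higher and 136 lower. Counting error was highest for *Wisp2*, at up to 9.17% of a value, below its coefficients of variation between libraries of 12.9% and 23.3%.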
